A study of Mus musculus with 8 samples.

Results

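The core genes of planar cell polarity were examined in the mouse utricle, an inner ear organ that senses linear acceleration. They are Vangl1, Vangl2, Celsr1, Celsr2, Celsr3, Fzd3, Fzd6, Prickle1 and Prickle2, matched by gene symbol in the authors' normalized table and then by Ensembl identifier in the count files. All 9 were found among the 48823 genes counted, and all 9 passed the filter on low counts. Gene expression was measured in 8 RNA-seq libraries, 4 from wild-type embryos and 4 from embryos carrying 1 Rest allele that lacks exon 4 beside 1 intact allele (Rest(+/deltaExon4)). This follows the genotype label, while the sample titles call the same 4 libraries KO, and whole-gene counts do not settle which holds. Rest encodes a repressor of neuronal genes. The labels give the age E15.5 and strain C57BL/6, except for wild-type replicate 4, which they give as E15.6 and C57BL/7. Each library held RNA pooled from 7 to 9 mice, so it averages over embryos and over all cell types of the dissected organ. The comparison asks whether the loss of this exon on 1 allele changed the level of each gene.

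Planar cell polarity is the alignment of cells within the plane of an epithelium. In the utricle it orients the hair bundle, the sensory organelle on top of each hair cell, with respect to its neighbours. The core proteins sit at cell junctions in complexes placed on opposite sides of each cell. Frizzled receptors (Fzd3, Fzd6) work with Dishevelled on one side, and Vangl with Prickle on the other. Celsr cadherins bridge the membranes of adjoining cells. Loss of several of these proteins is known to misorient hair cells of the mouse inner ear.

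None of the 9 core genes passed between genotypes in edgeR's quasi-likelihood test at a Benjamini-Hochberg adjusted p under 0.05, where 1.02% of the 16990 genes tested were lower and 0.147% higher in heterozygotes. DESeq2 called none of the 9 either. Before adjustment, Celsr3 alone had a p under 0.05, and the background of such genes was 13.4%. For no core gene were the libraries of the genotypes completely separate in CPM (counts-per-million, read pairs scaled to a common library size), whereas 4.89% of all genes were separate and lower and 2.98% separate and higher in heterozygotes. For the 8 core genes other than Celsr3, the 95% interval of the difference lay within a change of 1.5-fold in either direction. The median log2 change of the 9 was 0.011, beside -0.0027 over all genes tested. The replicates carry no statement of how mice were pooled across days or litters, so the p-values measure the spread between these pools.

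The libraries held 20365225 to 24557189 read pairs assigned to genes. Rest itself, counted over the whole gene and so no check of the exon deletion, was at 127 ± 3.20 CPM in heterozygotes and 116 ± 7.35 CPM in wild types (SD, n = 4 each; edgeR adjusted p = 0.456). In simulated counts for this comparison the test recovered 26% of genes changed by 1.5-fold, 63% at 2-fold and 90% at 4-fold. Over genes at large, smaller differences were thus often not detectable. The changed genes were drawn at random across expression levels, so these rates are not those of the core genes, whose intervals are given below. The share of read pairs assigned to no gene was 25.2% to 30.0% in heterozygotes and 30.1% to 33.9% in wild types, and 23408 to 23989 against 24265 to 24687 genes were detected. Both measures were separate between genotypes, and their part in the values below was not tested. Both strands were counted together. The exons of Vangl1 share 8 bases with the antisense gene Gm16160 (5 to 36 read pairs per library) and those of Fzd6 share 152 bases with Gm26704 on the other strand (7 to 28 read pairs), and those of Celsr3 share 65 bases with the miRNA gene Gm23156 (0 read pairs).

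**Figure D1:**
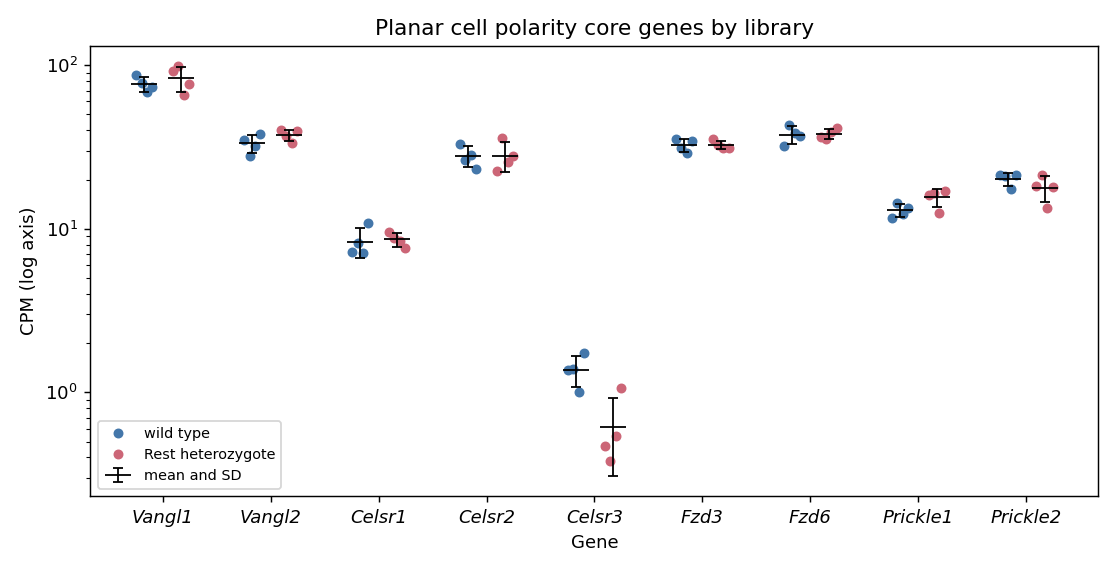
Level of each core gene (x axis) in CPM on a log axis (y axis). Points are libraries, 4 of each genotype, and black bars are the mean and SD. The genotypes overlap for every gene, and Celsr3 lies between 0.382 and 1.75 CPM, below all others.

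Fzd6 and Fzd3 encode the Frizzled receptors that act redundantly in hair cell orientation. Fzd6 was at 36.1, 35.6, 38.9 and 41.3 CPM in heterozygote replicates 1 to 4 and at 32.1, 43.1, 38.7 and 36.8 CPM in wild-type replicates 1 to 4. Fzd3 was at 35.3, 32.3, 31.4 and 31.0 CPM in heterozygotes and at 35.2, 31.3, 28.9 and 34.5 CPM in wild types. The wild-type libraries enclosed all heterozygote values of Fzd6, and the values of Fzd3 overlapped from end to end except for 1 heterozygote library just above the range.

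The log2 change of Fzd6 was 0.011 ± 0.10 (SE), with a 95% interval from -0.21 to 0.24 (edgeR adjusted p = 0.975). That of Fzd3 was 0.0011 ± 0.093 (95% interval -0.20 to 0.21, edgeR adjusted p = 0.997). These were the tightest intervals among the core genes.

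Vangl1 and Vangl2 are transmembrane proteins of the side opposite to Frizzled, and Vangl2 is the gene mutated in the looptail mouse. Vangl1 was at 92.4, 98.3, 66.1 and 76.3 CPM in heterozygotes and at 87.3, 77.6, 68.5 and 73.9 CPM in wild types. Heterozygote replicates 1 and 2 were above all wild-type libraries and replicate 3 was below them. Vangl2 was at 40.0, 36.7, 33.4 and 39.4 CPM in heterozygotes and at 34.8, 27.9, 32.2 and 38.0 CPM in wild types.

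The log2 change was 0.12 ± 0.13 for Vangl1 (SE, 95% interval -0.16 to 0.39, edgeR adjusted p = 0.725). For Vangl2 it was 0.17 ± 0.11 (95% interval -0.07 to 0.41, edgeR adjusted p = 0.529). An increase of Vangl2 above 1.33-fold or of Vangl1 above 1.31-fold lay outside these intervals.

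Prickle1 and Prickle2 are cytoplasmic partners of Vangl, with LIM domains. Prickle1 was at 16.1, 16.5, 12.6 and 16.9 CPM in heterozygotes and at 11.7, 14.3, 12.3 and 13.5 CPM in wild types. Of the heterozygote libraries 3 were above all wild types and replicate 3 was within their range. Prickle2 was at 18.2, 21.2, 13.4 and 18.1 CPM in heterozygotes and at 21.2, 20.9, 17.5 and 21.2 CPM in wild types, with heterozygote replicate 3 the lowest of the 8 libraries.

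The log2 change of Prickle1 was 0.26 ± 0.13 (SE, 95% interval -0.020 to 0.55, edgeR adjusted p = 0.409, exact two-sided permutation p = 0.0857). That of Prickle2 had the opposite sign, -0.19 ± 0.14 (95% interval -0.50 to 0.12, edgeR adjusted p = 0.594, exact two-sided permutation p = 0.343). Neither difference passed, and the smallest exact p that 4 against 4 libraries allow is 0.0286.

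Celsr1 and Celsr2 are cadherins that bind their own kind across cell borders. Celsr1 was at 9.60, 8.75, 8.43 and 7.61 CPM in heterozygotes and at 7.19, 8.18, 7.12 and 10.8 CPM in wild types. Celsr2 was at 22.5, 35.9, 25.6 and 27.9 CPM in heterozygotes and at 33.0, 26.4, 28.4 and 23.3 CPM in wild types. For Celsr1 the highest value was wild-type replicate 4, and for Celsr2 both the highest and the lowest were heterozygote libraries.

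The log2 change was 0.048 ± 0.16 for Celsr1 (SE, 95% interval -0.32 to 0.41, edgeR adjusted p = 0.927). For Celsr2 it was 0.010 ± 0.15 (95% interval -0.33 to 0.35, edgeR adjusted p = 0.985). The sign of the change of Celsr1, Celsr2, Fzd3 and Fzd6 turned under some of the other settings, so no direction is given for them.

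Celsr3, the third cadherin of the group and best known for its part in axon guidance, had the lowest level and the largest difference. It was at 0.472, 0.382, 0.543 and 1.06 CPM in heterozygotes and at 1.36, 1.39, 1.01 and 1.75 CPM in wild types. These values rest on 11, 8, 13 and 26 read pairs in heterozygotes and on 32, 30, 25 and 36 in wild types. Heterozygote replicate 4 was slightly above wild-type replicate 3, and the other 3 heterozygote libraries were below every wild type.

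The mean of Celsr3 was 0.615 ± 0.306 CPM in heterozygotes and 1.38 ± 0.3001 CPM in wild types (SD, n = 4 each), with a log2 change of -1.14 ± 0.37 (SE) and a 95% interval from -1.97 to -0.32. The unadjusted p was 0.0112 and the adjusted p over all genes 0.23 (edgeR, Benjamini-Hochberg), so the difference did not pass. The exact two-sided permutation p was 0.0571. DESeq2 gave an adjusted p of 0.154. The log2 change was -0.96 to -1.54 when single libraries were left out, the largest without heterozygote replicate 4 (edgeR adjusted p = 0.107).

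**Figure D2:**
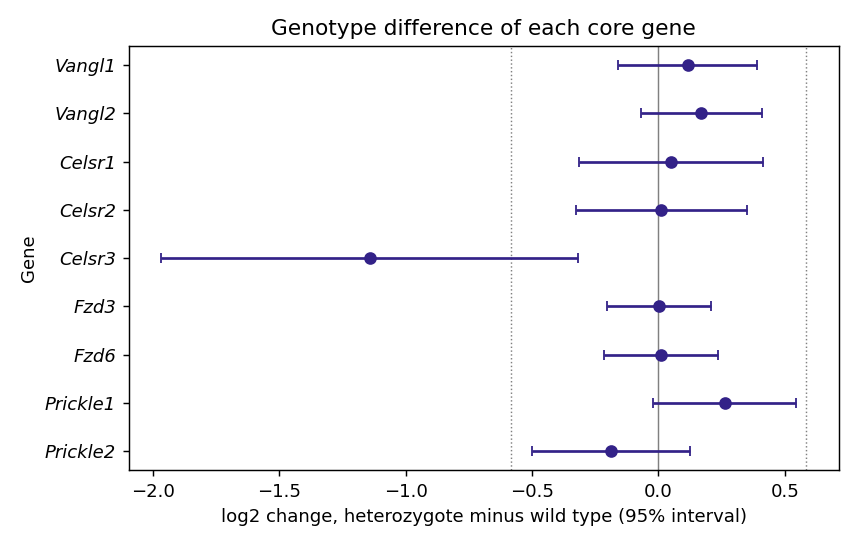
Log2 change of each core gene, heterozygote minus wild type (x axis), with its 95% interval from the edgeR fit. Dotted lines mark 1.5-fold. The intervals of 8 genes lie between these lines, while that of Celsr3 runs from -1.97 to -0.32.

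The promoter of Celsr3 is shown because its letters come close to the RE1 element, the sequence bound by REST. RefSeq promoter windows of 300 bases (GRCm38.p6, 250 before and 50 after the start) were found for 5 of the 9 genes, namely Vangl2, Celsr2, Celsr3, Prickle1 and Prickle2. The element was searched on both strands as the left part TTCAGCACC, a gap of 2 bases and the right part GGACAGCGC, which gives 18 fixed positions. The 250 bases upstream of the RefSeq start of Celsr3 are chr9:108825795-108826044 on the plus strand. The closest match is in capitals (108825918 to 108825937, with 107 bases between it and that start). In GENCODE the gene starts further downstream, at 108826320, so the whole window (to 108826094) lies before that gene start.
Celsr3 upstream: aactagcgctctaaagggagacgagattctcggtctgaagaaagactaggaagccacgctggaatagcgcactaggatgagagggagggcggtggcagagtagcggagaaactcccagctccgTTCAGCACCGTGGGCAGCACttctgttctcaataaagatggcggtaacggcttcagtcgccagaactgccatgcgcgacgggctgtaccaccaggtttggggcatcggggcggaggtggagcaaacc

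The match holds the whole left part and differs from the element at 2 positions, A14G and G19A, counted from 1 at the first base of the left part, with the element's letter first. A match with at most 2 differences was present in 12 of 32851 promoter windows, or 0.0365%. The next closest among the core genes lay in 1 of the 4 windows of Prickle2, with 5 differences (chromosome 6, 92534828 to 92534847, minus strand), and the closest in Vangl2, Celsr2 and Prickle1 had 6 or 7. Capitals in the pair below mark letters shared with the element.
Celsr3 match: TTCAGCACCgtGGgCAGCaC
Prickle2 match: TTCAGaAtCcaGGgCtGCtC

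Of the genes tested, 7 had a window with at most 2 differences, Celsr3 included, and the limit was set at the value of Celsr3 itself. Of the 6 besides Celsr3, 1 fell, the hair bundle gene Lhfpl5 (edgeR adjusted p = 0.0135), where 1.02% of all genes were lower. A negative log2 change was found for 5 of these 6, where 50.5% of all genes had one, and their median was -0.21 against -0.0027 over all genes tested. Apart from Lhfpl5, the negative ones did not pass (edgeR adjusted p = 0.431 to 0.879), and Osbp2 among them was at only 0.395 CPM in heterozygotes and 0.463 CPM in wild types. So few genes are a description only. Lhx3, whose window holds the element without a difference, was at 23.5 ± 6.18 CPM in heterozygotes and 23.3 ± 2.82 CPM in wild types (SD, n = 4 each). A match describes letters only, and binding was not measured here.

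Levels of different genes were compared per length, as CPM per kb of merged exons. In wild-type libraries the order was Vangl1 (10.7 ± 1.11), Fzd6 (7.82 ± 0.954), Vangl2 (4.75 ± 0.610), Prickle1 (2.98 ± 0.270), Fzd3 (2.54 ± 0.228), Celsr2 (2.41 ± 0.354), Prickle2 (2.34 ± 0.212), Celsr1 (0.756 ± 0.157) and Celsr3 (0.114 ± 0.0249 CPM per kb; SD, n = 4). Prickle1 and Fzd3, Fzd3 and Celsr2, and Celsr2 and Prickle2 had overlapping ranges in the wild-type libraries, and all other neighbours in the order were apart. The order of means was the same in heterozygotes. This order, and the paralog shares below, depend on the merged-exon length used. In wild-type CPM, Prickle1 (13.0) was below Prickle2 (20.2), and Fzd6 and Fzd3 were at 37.7 and 32.5. Among protein-coding genes tested, the wild-type level of Vangl1 per kb was at the 71.0th percentile and that of Celsr3 at the 1.4th.

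**Figure D3:**
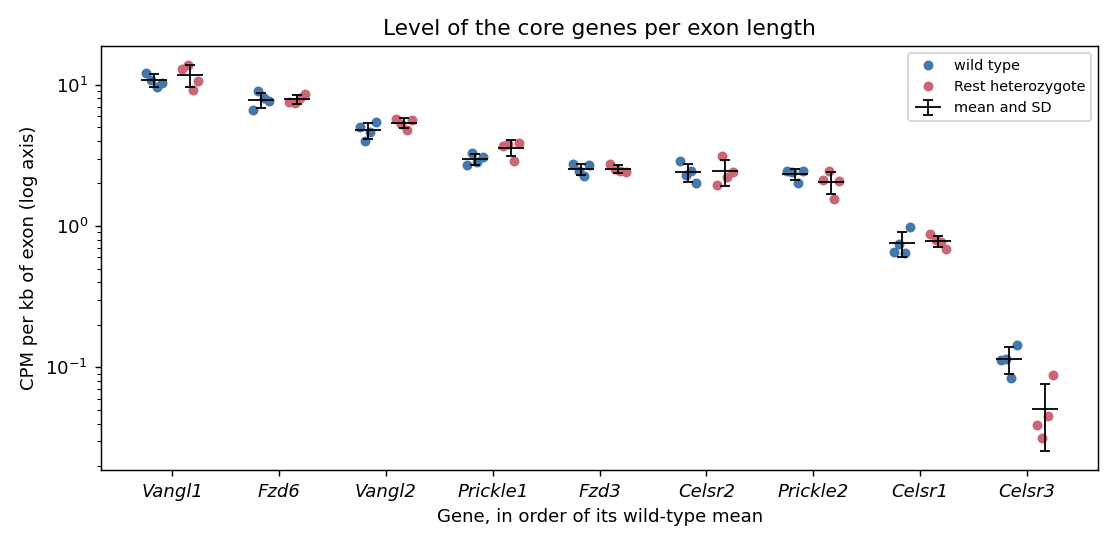
Level per exon length in CPM per kb on a log axis (y axis), with genes in the order of their wild-type means (x axis). Points are libraries and black bars the mean and SD. Vangl1 is highest at 10.7 CPM per kb in wild types, and Celsr1 and Celsr3 lie below the other 7 genes.

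Within each group of paralogs the share of 1 member was then taken from the per-length values of the same library. Vangl1 made up 68.2% ± 3.23 of the Vangl total in heterozygotes and 69.3% ± 3.40 in wild types, and Fzd6 made up 75.6% ± 2.17 and 75.3% ± 3.69 of the total of Fzd3 and Fzd6 (SD, n = 4 each). Both shares overlapped between genotypes.

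The share of Prickle1 in the Prickle total was 63.8%, 60.8%, 65.0% and 65.0% in heterozygotes and 52.3%, 57.6%, 58.4% and 55.8% in wild types. Every heterozygote library was above every wild type. This share was 1 of several looked at, without a test and without a background from other gene pairs. Since neither Prickle gene passed in the fit over all genes, it is a description of these 8 libraries. The Celsr3 share of the Celsr total was 1.60% ± 0.822 in heterozygotes and 3.49% ± 0.847 in wild types (SD, n = 4 each), with an overlap of 1 library. The Celsr total itself was 3.26 ± 0.477 and 3.28 ± 0.234 CPM per kb, with Celsr2 holding 74.1% and 73.3% of it.

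**Figure D4:**
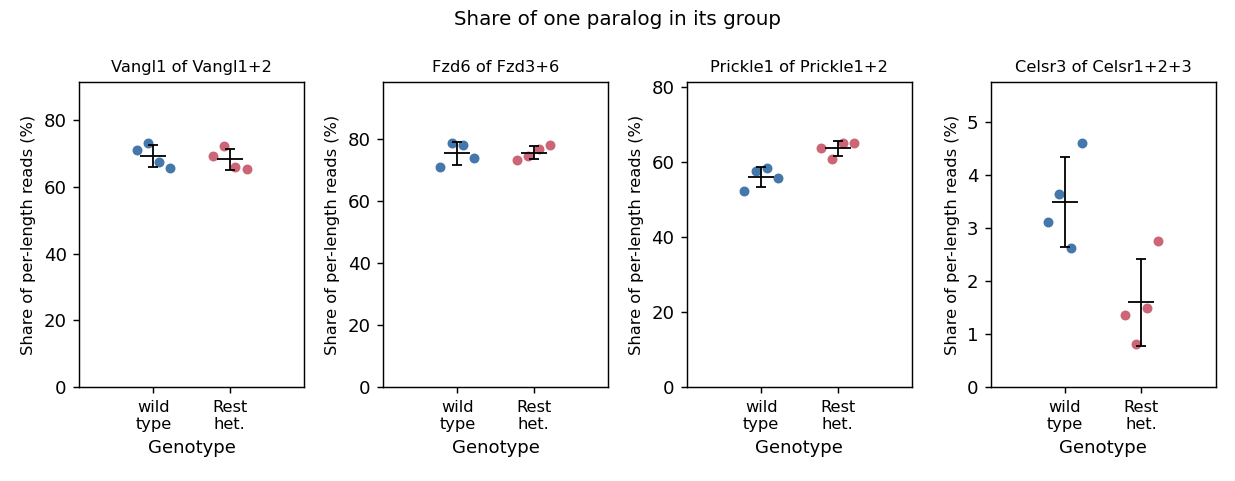
Share of 1 paralog in the per-length reads of its group in percent (y axis of each panel) by genotype (x axis). Points are libraries and black bars the mean and SD. The Prickle1 share is 60.8% to 65.0% in heterozygotes and 52.3% to 58.4% in wild types, and the Vangl1 and Fzd6 shares overlap.

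The rest of the pathway was read from 7 further lists with 100 genes, of which 88 were tested. No gene of these lists passed with edgeR, beside 1.02% lower and 0.147% higher over all genes. Before adjustment, 14 of the 88 (15.9%) had a p under 0.05, where the background was 13.4%. DESeq2 called 1 of them, Mapk10.

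Among 17 adaptors and co-receptors, 16 were tested and the median log2 change was 0.17, with 4 at an unadjusted p under 0.05. Dvl3, one of the Dishevelled proteins that bind Frizzled, was at 139 ± 12.3 CPM in heterozygotes and 139 ± 6.61 CPM in wild types. The co-receptor Ptk7 was at 95.1 ± 4.95 and 75.3 ± 19.7 CPM (SD, n = 4 each), with edgeR adjusted p-values of 0.986 for Dvl3 and 0.411 for Ptk7. All 8 other Frizzled receptor genes were tested, with a median of 0.17 and 1 at an unadjusted p under 0.05. The highest in CPM, not per length, were Fzd4 at 29.1 ± 1.72 and 32.5 ± 0.238 CPM and Fzd10 at 29.7 ± 4.17 and 23.3 ± 2.73 CPM (edgeR adjusted p = 0.431 and 0.272).

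Of 21 genes of Wnt ligands and their secretion, 13 were tested (median log2 change 0.11, 1 at an unadjusted p under 0.05). Wls, which carries Wnt proteins to the cell surface, was at 197 ± 26.9 CPM in heterozygotes and 200.1 ± 15.53 CPM in wild types. Wnt5a, the ligand most tied to planar polarity, was at 116 ± 26.1 and 107 ± 8.17 CPM (SD, n = 4 each), with edgeR adjusted p-values of 0.946 for Wls and 0.772 for Wnt5a. Of 11 secreted Wnt inhibitors, 9 were tested (median 0.069, 2 at an unadjusted p under 0.05), with the highest CPM for Sfrp1 at 680 ± 199 and 602 ± 33.9 CPM and Dkk3 at 167 ± 44.3 and 162 ± 17.7 CPM (edgeR adjusted p = 0.669 and 0.931).

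The Fat and Dachsous cadherins form a second polarity system beside the core genes. Of 7 genes 6 were tested, with a median of 0.066 and none at an unadjusted p under 0.05. Fat1 was at 25.9 ± 3.88 CPM in heterozygotes and 26.9 ± 2.26 CPM in wild types, and Dchs1 at 15.65 ± 2.52 and 16.5 ± 2.02 CPM (SD, n = 4 each), with edgeR adjusted p-values of 0.886 and 0.864.

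Downstream effectors were all tested (18 genes, median -0.038, 4 at an unadjusted p under 0.05). The small GTPases Cdc42 and Rhoa were at 863 ± 50.8 against 859 ± 39.2 CPM and at 555 ± 32.9 against 513 ± 33.4 CPM (edgeR adjusted p = 0.977 and 0.555). Mapk10, a JNK kinase of neurons that was named after its values were seen, was at 5.06, 4.59, 3.59 and 5.81 CPM in heterozygotes and 6.63, 9.24, 12.3 and 10.6 CPM in wild types. All heterozygote libraries were below all wild types, which held for 4.89% of all genes tested. Its log2 change of -1.03 ± 0.22 (SE) had an adjusted p of 0.0517 with edgeR, just short of the threshold, and 0.00084 with DESeq2.

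Genes that set polarity inside the hair cell were also all tested (18 genes, median -0.022, 2 at an unadjusted p under 0.05). Gnai2 and Gnai3, G protein subunits that mark the bare zone beside the bundle, were at 248 ± 7.94 against 227 ± 8.42 CPM and at 145 ± 7.08 against 134 ± 12.9 CPM (SD, n = 4 each), with edgeR adjusted p-values of 0.417 and 0.565.

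Cell type markers were set beside these values, since in pooled tissue fewer cells of a type and less RNA per cell cannot be told apart. The summed level of 10 ganglion neuron markers was 366 to 437 CPM in heterozygotes and 557 to 810 CPM in wild types, with Nefm and Nefl, whose annotated spans overlap, lower (edgeR adjusted p = 1.88e-05 and 0.0116) and none higher. The gap came from these 2 genes. The sum of the other 8 was taken after the values were seen. It was 206 to 257 CPM in heterozygotes and 207 to 359 CPM in wild types, which overlapped. Of the 8, 4 had a positive log2 change (0.0079 to 0.27) and 4 a negative one (-0.13 to -1.68). The largest negative ones, of Prph, Stmn2 and Tubb3, came mostly from wild-type replicate 3, at 48.7, 42.7 and 62.0 CPM. The other wild-type libraries were at most at 9.23, 11.1 and 18.6 CPM, and heterozygotes at 6.59, 12.8 and 20.4 CPM. Isl1 alone held 134 to 166 CPM in heterozygotes and 133 to 162 CPM in wild types. Nefm and Nefl were left out because they passed, which in itself favours an overlap of the rest. Within wild types, the sum of all 10 neuron markers was 644, 557, 810 and 577 CPM in replicates 1 to 4. Celsr3 was at 1.36, 1.39, 1.01 and 1.75 CPM in the same libraries. These values rest on 25 to 36 read pairs each, and no relation is read from counts this low. The sum of 10 hair cell markers was 681 to 839 CPM in heterozygotes and 777 to 896 CPM in wild types, and 1 of them, Otof, fell (edgeR adjusted p = 0.000319); the sum of the other 9 was 599 to 745 CPM against 608 to 720.5 CPM. The part of these markers in the Celsr3 difference was not tested.

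The sum of 6 epithelial markers was 1356 to 1492 CPM in heterozygotes and 1216 to 1235 CPM in wild types, and Krt8 rose (edgeR adjusted p = 0.0415). Without Krt8 the sum was 1261 to 1396 CPM against 1136 to 1162 CPM, still separate. Of the 5 genes kept, Epcam (597 to 657 against 515 to 572 CPM) and Krt18 (372 to 405 against 303 to 331 CPM) were separate and higher. Neither passed (edgeR adjusted p = 0.213 and 0.107). Cdh1, Cldn3 and Cldn6 overlapped between genotypes, and the log2 change of Cdh1 was negative (-0.046). The Prickle1 share and this epithelial sum were each separate between genotypes, and a relation between them was not tested. Sums of supporting cell (3408 to 4060 against 3249 to 4153 CPM), Schwann cell (7 of 8 genes tested, 308 to 381 against 294 to 358 CPM), mesenchyme (3259 to 4449 against 3753 to 4000 CPM) and endothelial markers (127 to 141 against 123 to 145 CPM) overlapped, and none of their genes passed. Erythroid markers reached 6324 CPM in wild-type replicate 4 and 494 to 767 CPM in the other libraries. No marker was at 0 in all libraries.

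**Figure D5:**
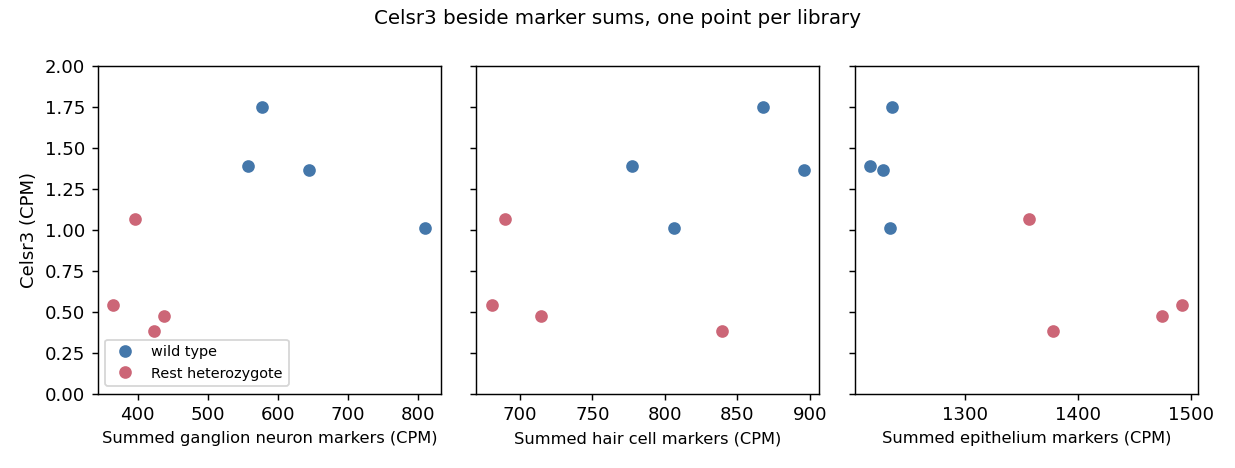
Celsr3 in CPM (y axis) against the summed CPM of ganglion neuron, hair cell and epithelial markers (x axes), with 1 point per library. The genotypes are apart in the neuron sum (366 to 437 against 557 to 810 CPM), through Nefm and Nefl, since the sum of the other 8 markers overlaps, and apart in the epithelial sum. They overlap in the hair cell sum.

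By the rule for likeness, the protein-coding genes of at least 2 CPM whose log2 level followed Celsr3 most closely over the 8 libraries were Cep70 (Pearson r = 0.987), Capza1 (0.972), Plod1 (0.971), Fam13c (0.962) and Serinc3 (0.954). They are the top of 12600 genes compared, all points share the same libraries and genotypes, and the values are a description. Cep70, a centrosomal protein gene, was at 39.3 ± 3.22 CPM in heterozygotes and 44.2 ± 1.91 CPM in wild types, and Capza1, a subunit of the actin capping protein, at 81.9 ± 10.2 and 108 ± 4.24 CPM (SD, n = 4 each), with edgeR adjusted p-values of 0.406 and 0.0697.

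Some core genes lie close to genes that did change. Within 5 Mb of Vangl1 on chromosome 3 (102153583 to 102204693, GRCm38), 4 of 102 genes tested fell and 2 rose, or 5.88%, beside 1.17% of all genes called in either direction. Around Celsr2 (108390851 to 108415552) 3 of 101 fell and 3 rose, or 5.94%, and 4 of these 6 genes are also near Vangl1. 4632404M16Rik, annotated as a sense intronic RNA and 0.0161 Mb from Vangl1, was at 9.15 ± 2.53 CPM in heterozygotes and 25.9 ± 3.11 CPM in wild types. Vav3, 0.925 Mb from Celsr2, rose from 21.5 ± 5.16 to 51.0 ± 5.84 CPM (SD, n = 4 each; edgeR adjusted p = 0.00311 for both). Vangl1 and Celsr2 did not pass between these neighbours.

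Vangl2 lies on chromosome 1 (172000960 to 172028444), with 2 of 92 genes (2.17%) within 5 Mb lower and none higher. Near Fzd3 on chromosome 14 (65192449 to 65262463) 4 of 81 (4.94%) fell, the neurofilament genes Nefm and Nefl among them, 2.82 Mb away. Near Celsr3 on chromosome 9 (108826320 to 108852969) 1 of 148 (0.68%) fell, Nek11. Around Celsr1, Fzd6 and Prickle1, all on chromosome 15, 2 of 118, 0 of 47 and 1 of 80 genes were called, and around Prickle2 on chromosome 6 it was 1 of 74, all of them lower.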

How the data were processed

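Reads were aligned with STAR 2.5.2a to GRCm38.p4, per the submitters' processing notes, and the authors deposited whole-number counts of read pairs per gene for each library. Their table of DESeq2-normalized signal values, so named as deposited by the authors, covers 21369 genes and 7 libraries, without wild-type replicate 4. Multiplied by 1 size factor per library, 100% of its values came out whole (within 0.001) and equal to the deposited counts. It served for gene symbols and, as recovered reads of its libraries and genes, for an alternative fit. The unstranded count column of all 8 libraries was used. Lines that name no gene (25.2% to 30.0% of read pairs in heterozygotes, 30.1% to 33.9% in wild types) were left out. Genes were filtered with filterByExpr (minimum count 10, minimum total 15), scaled by TMM and tested with edgeR 4.0.16 (limma 3.58.1, R 4.3.3), with Benjamini-Hochberg adjustment over 16990 genes and a threshold of 0.05. CPM were taken with edgeR on TMM-scaled library sizes. Gene positions and exon lengths come from GENCODE M21, which held 48349 of the 48823 genes. Intervals are t intervals from the fit.

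Alternatives were DESeq2 1.42.0, other scalings and filters, the authors' 7 libraries, a replicate block and leaving out each library. The test was checked on simulated counts. The genes, lists and rules were chosen with earlier results of these data known. Genes named besides the 9 are Rest, in each list those past the threshold (up to 4) or else the 2 most highly expressed, and the 5 most like Celsr3. Other named genes were chosen after their values were seen.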

Additional observations from a re-analysis of the deposited data

Results flagged for a closer look

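Prickle2 in wild-type replicate 3 was at 17.47 CPM, while the other 3 wild-type libraries were at 20.9 to 21.2 CPM. The gap was 0.916 of the range of the group, above Dixon's 95% critical value for 4 libraries. Of 18 groups checked (9 genes in both genotypes) it was the only one, and chance flags about 1 in 20. Wild-type replicate 3 also had the highest ganglion neuron marker sum, 810 CPM, and the relation was not tested. Without this library the log2 change of Prickle2 stayed negative.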

How the results depend on the processing

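None of the 9 core genes passed under any of the 15 alternatives, and Celsr3 had an adjusted p of 0.107 to 0.428 (edgeR or DESeq2). Vangl1, Vangl2, Celsr3, Prickle1 and Prickle2 kept the sign of their log2 change in every alternative. Leaving out single libraries gave 0.038 to 0.21 for Vangl1, -1.54 to -0.96 for Celsr3, 0.22 to 0.35 for Prickle1 and -0.27 to -0.075 for Prickle2. The sign turned without TMM scaling for Celsr2 (-0.038), Fzd3 (-0.041) and Fzd6 (-0.030), with a filter at a mean of 1 CPM for Fzd3 (-0.0070), and with the authors' 7 libraries and gene set for Celsr2 (-0.051). It also turned when single libraries were left out, with ranges of -0.019 to 0.20 for Celsr1, -0.12 to 0.12 for Celsr2, -0.050 to 0.052 for Fzd3 and -0.048 to 0.095 for Fzd6. The cause was not tested.

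Over all genes, 173 were lower and 25 higher. DESeq2 gave 411 and 153, the authors' 7 libraries with their 21369 genes, which changes libraries and genes at once, 107 lower, and the replicate block 80 lower and 16 higher. Leaving out single libraries gave 105 to 140 lower and 12 to 28 higher, with fewer libraries in each fit. The deviations of same-numbered libraries correlated at -0.14, -0.10, 0.14 and -0.26 over 9868 genes. Differently numbered libraries ran from -0.38 to 0.34, so with 4 libraries per genotype these values do not settle whether the numbers pair libraries. With the replicate block Celsr3 was at -1.21 (edgeR adjusted p = 0.272). Low counts limit Celsr3, with 8 to 36 read pairs per library.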
